A study of Arabidopsis thaliana with 33 samples.

Results

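In Arabidopsis thaliana hypocotyl explants, 150 protein-coding genes stood out by a peak on callus induction medium (CIM) that no other stage of culture reached. They were chosen among 27261 protein-coding loci (33400 loci in all) from measured levels. Counts were scaled to the library total as CPM (counts per 1e+06 counts of the library), log2(CPM + 1) was averaged within each of 11 groups, and each locus was scored as its lowest mean among the 3 CIM groups minus its highest mean among the 8 other groups. The 150 highest scores were kept. The rule thus fixed that CIM is highest but set no order among the 3 CIM groups or among the other 8, and every comparison of CIM with another stage below describes how the genes were chosen and carries no test.

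The series asks how light signals that act through HY5 affect organ regeneration. Explants came from 7-day-old seedlings grown in low light and were cultured at 22 °C in the same low light, 2 µmol of photons per square metre and second, or in high light, 40 µmol. After 4 days on CIM (0.5 mg/L 2,4-D, a synthetic auxin, and 0.1 mg/L kinetin, a cytokinin), 3 groups were sampled: hy5-2 in high light, Col-0 in high light and Col-0 in low light. The same 3 groups were then moved to a medium for shoot induction (SIM), with the natural auxin IAA at 0.15 mg/L and the cytokinin 2-iPA at 0.5 mg/L, and sampled after 4 and 8 days there. The explants before culture (T0) were hy5-2 and Col-0, both from low light. Col-0 is the wild-type accession and hy5-2 carries a mutation of HY5, a bZIP transcription factor of light signalling. Each group had 3 libraries, which the series calls biological replicates. The hy5-2 explants were cultured only in high light, high light began with culture, and medium and days in culture changed together, so these cannot be told apart.

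Auxin-rich CIM turns pericycle-like cells of an explant into callus, a mass of dividing cells whose gene activity is known to resemble the tip of a lateral root primordium. Auxin response factors switch on LBD genes, and these together with PLETHORA, WOX5 and PUCHI build a root stem cell programme. On cytokinin-rich SIM this programme gives way to shoot meristem formation.

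Library totals were 7235763 to 21184356 counts, with a median of 10062479. HY5 was at 1.61 to 3.85 CPM in the 12 hy5-2 libraries and at 5.67 to 50.0 CPM in the 21 Col-0 libraries, so every library matched its genotype label. Across genes, which do not count as independent observations, replicates of a group had a Pearson r of 0.995 to 0.998. Summed levels of the 7 photosynthetic tissue markers were 3040 to 6002 CPM in T0 libraries, 62.6 to 574 CPM at CIM, 62.7 to 966 CPM at SIM 4 days and 120 to 1534 CPM at SIM 8 days. The 22 root stem cell and callus regulators, 8 of them among the 150 genes, summed to 1281 to 1628 CPM at CIM and to at most 971 CPM at any other stage. Those 8 were chosen for their peak at CIM, so the choice of genes contributed to this difference and it is no independent check. In such bulk RNA, fewer cells of a type and less RNA per cell cannot be told apart.

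Scores ran down to 2.04 with a median of 2.68. The highest were CYP77B1 at 5.49, AOX1B at 5.49, AT4G22470 at 4.91, AT2G18980 at 4.80 and RBK2 at 4.64. The score stands on a log2 scale, so a score of 2.04 still means that the lowest CIM group had about 4 times the CPM + 1 of the next group. Just inside the limit stood AT5G45720 and IDA at 2.06, HLS1 and LAS1 at 2.05 and UGE2 at 2.04. Just outside stood AT5G40590 at 2.04, then GA3OX2 and AT4G18450 at 2.03. In all, 3847 protein-coding loci (14.1%) had a score above 0. For all 150 genes the lowest CIM library lay above the highest of the 24 other libraries, a direction that the choice of genes set.

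The 150 genes took 0.0671 to 0.107% of all counts at T0, 2.29 to 2.87% in the 9 CIM libraries, 0.168 to 0.225% at SIM 4 days and 0.0677 to 0.0882% at SIM 8 days. The share at CIM was 2.47 ± 0.165% in hy5-2, 2.51 ± 0.122% in Col-0 in high light and 2.74 ± 0.169% in Col-0 in low light (SD, n = 3 each), ranges that overlap. Of the CIM level of a gene, a median of 1.57% was present at T0, 6.27% at SIM 4 days and 2.84% at SIM 8 days. The largest share that any gene kept was 16.7% at T0, 20.1% at SIM 4 days and 16.2% at SIM 8 days. Outside CIM the highest group mean of log2(CPM + 1) was at T0 for 26 genes, at SIM 4 days for 111 and at SIM 8 days for 13. The 10 genes with the most counts held 50.0% of the counts of the 150, and the mean level of a gene over the CIM libraries was 5.29 to 4788 CPM with a median of 46.0 CPM. Among the 9 CIM libraries a gene had a median coefficient of variation of 18.7% (6.81 to 61.1%).

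**Figure D1:**
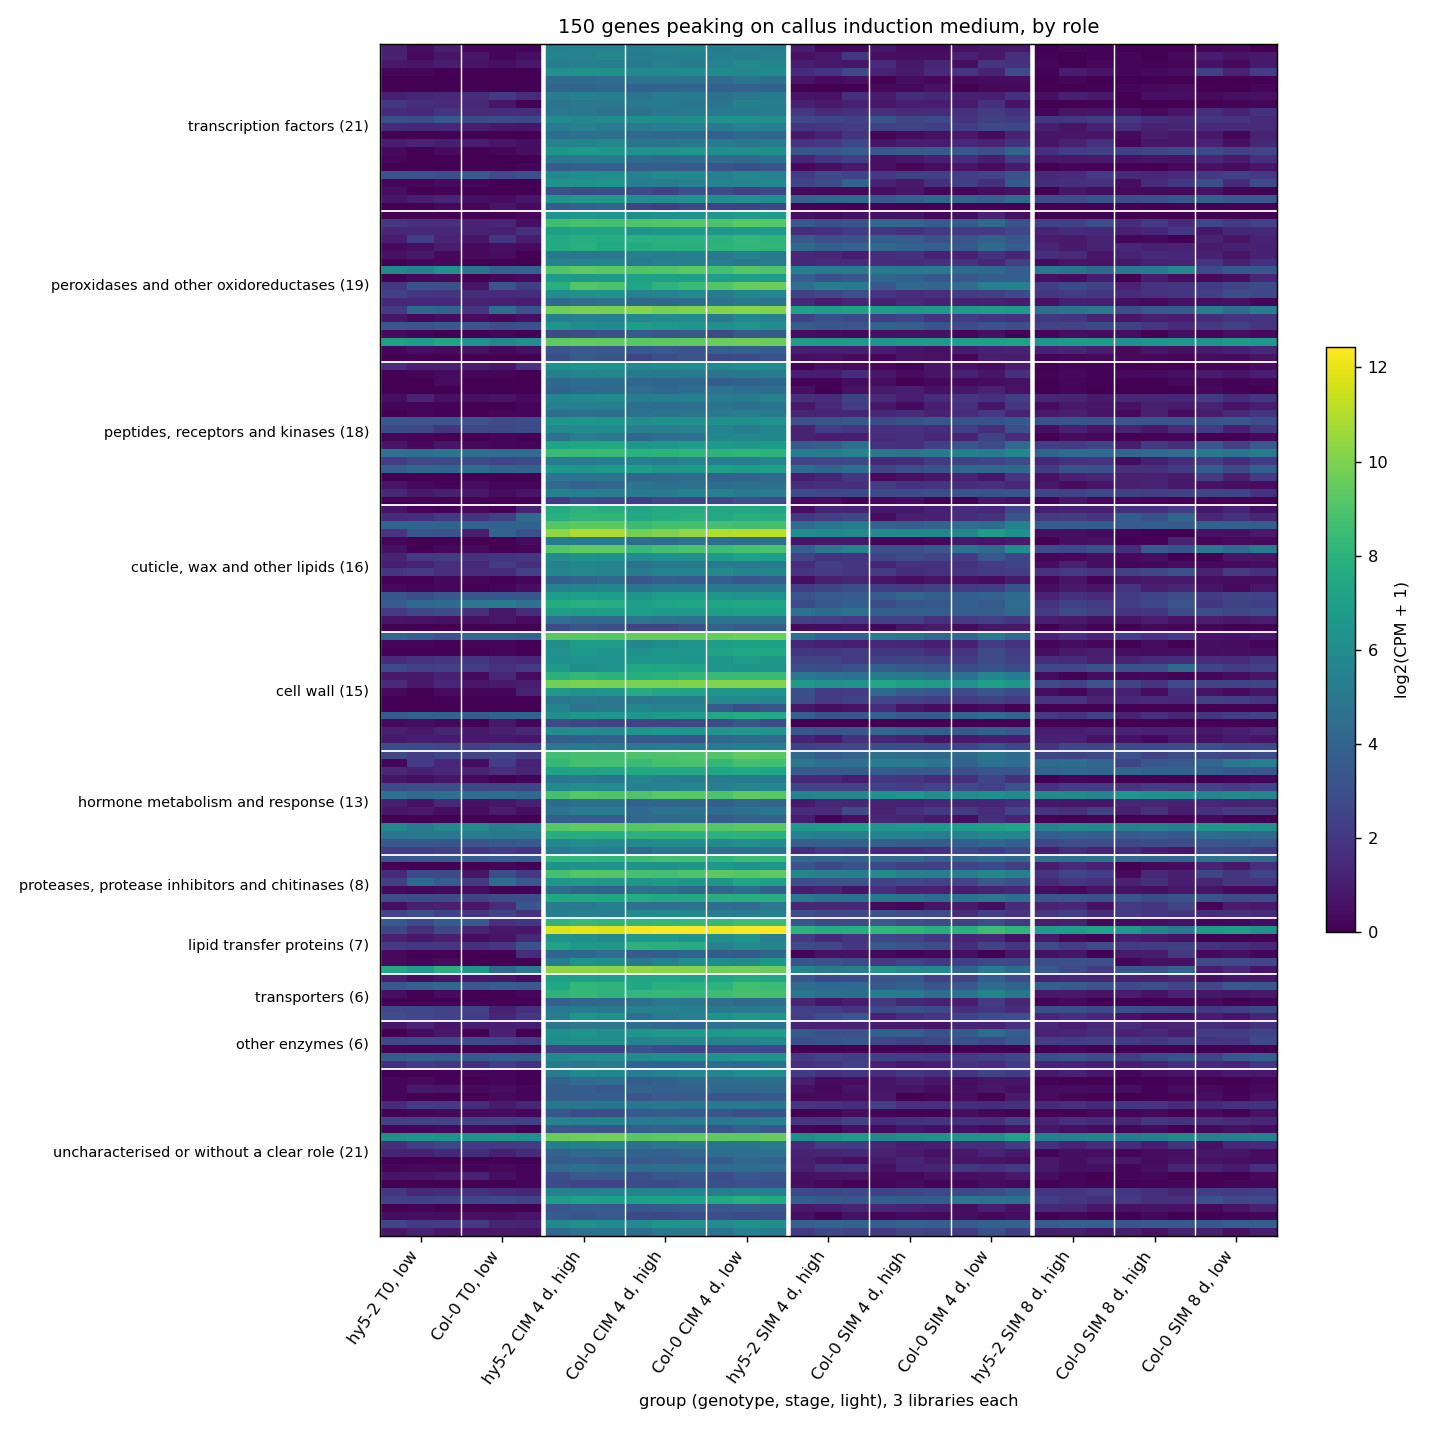
Level of the 150 genes (rows, grouped by role) in all 33 libraries (columns, 3 per group, ordered T0, CIM 4 days, SIM 4 days and SIM 8 days), as log2(CPM + 1) on the colour scale. The 9 CIM libraries form the single bright block, and the SIM 4 days columns keep a faint trace, with a median of 6.27% of the CIM level.

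Upstream sequences are given for 5 of the genes described below. All 5 hold a match to motifs bound by auxin response factors or by the epidermal homeodomain factors. Among the 150 genes, 22 had a match to the former and 9 to the latter, so the 5 shown do not stand for the set. Each sequence is the 250 bases before the deposited start of the gene, written 5′ to 3′ in the direction of transcription from RefSeq's TAIR10.1 assembly. Capitals mark a match to the auxin response element TGTCTC or TGTCGG, or to the L1 box TAAATGCA, on either strand. PUCHI (chr5:6165992-6166241, minus strand) and WES1 (chr4:13653359-13653608, plus strand) show TGTCTC. WOX5 (chr3:3527325-3527574, plus strand) shows CCGACA, the reverse complement of TGTCGG. PDF1 (chr2:17827537-17827786, minus strand) shows GAGACA, the reverse complement of TGTCTC, and an L1 box, and CYP77B1 (chr1:3901762-3902011, plus strand) an L1 box.
PUCHI: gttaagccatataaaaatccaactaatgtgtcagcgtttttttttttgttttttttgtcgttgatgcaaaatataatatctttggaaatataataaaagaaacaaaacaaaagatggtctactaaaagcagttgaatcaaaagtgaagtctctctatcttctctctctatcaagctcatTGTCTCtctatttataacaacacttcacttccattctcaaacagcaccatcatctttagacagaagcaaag
WOX5: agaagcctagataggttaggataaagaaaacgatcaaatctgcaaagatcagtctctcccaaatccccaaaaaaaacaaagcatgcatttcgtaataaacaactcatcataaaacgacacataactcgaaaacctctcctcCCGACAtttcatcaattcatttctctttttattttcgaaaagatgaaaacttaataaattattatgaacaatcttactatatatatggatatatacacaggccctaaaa
WES1: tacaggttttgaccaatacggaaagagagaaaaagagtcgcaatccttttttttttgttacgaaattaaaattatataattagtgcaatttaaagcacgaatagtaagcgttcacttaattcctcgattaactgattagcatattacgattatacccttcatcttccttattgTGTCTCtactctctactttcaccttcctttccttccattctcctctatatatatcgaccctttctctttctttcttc
PDF1: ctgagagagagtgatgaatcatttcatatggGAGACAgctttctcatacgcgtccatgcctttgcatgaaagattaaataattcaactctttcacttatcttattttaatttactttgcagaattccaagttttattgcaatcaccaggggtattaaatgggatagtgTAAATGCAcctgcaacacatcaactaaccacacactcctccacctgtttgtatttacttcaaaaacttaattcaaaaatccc
CYP77B1: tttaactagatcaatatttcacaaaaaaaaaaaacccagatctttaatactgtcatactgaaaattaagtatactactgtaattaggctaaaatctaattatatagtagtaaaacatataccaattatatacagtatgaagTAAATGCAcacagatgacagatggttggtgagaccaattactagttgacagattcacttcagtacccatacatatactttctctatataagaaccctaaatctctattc

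Counting the base before the gene start as -1, the first base of the match lay at -71 in PUCHI, -77 in WES1 and -109 in WOX5. The L1 box began at -82 in PDF1 and at -109 in CYP77B1, and GAGACA at -219 in PDF1. TGTCTC stood in 12.7% of the 150 upstream windows and in 12.3% of all 27205 windows of this length, and TGTCGG in 2% against 4.27%. An auxin response element in either form stood in 14.7% against 16.0%. The L1 box in either form, TAAATGCA or TAAATGTA, stood in 6% against 3.91%, and the G-box CACGTG, a motif HY5 can bind, in 5.33% against 7.69%. Both strands were searched, no 2 matches overlap in the sequences shown, and a match is a description of letters and not a binding site. Median GC content of the windows was 31% for the 150 genes and 32.4% for all.

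Transcription factors were the largest named class, with 21 genes that summed to 20.4 to 30.1 CPM at T0, 721 to 939.7 CPM in CIM libraries, 46.5 to 87.1 CPM at SIM 4 days and 20.2 to 46.5 CPM at SIM 8 days. Roles were assigned by hand from annotations after the values had been seen and serve only to order the description. PUCHI (AT5G18560, chr5:6164587-6165991, minus strand), an AP2-type factor of lateral root initiation, had the highest score of the class, 4.45. Its CIM libraries gave 43.1, 45.3 and 43.9 CPM in hy5-2, 39.5, 44.7 and 50.3 CPM in Col-0 in high light and 37.7, 42.6 and 37.8 CPM in Col-0 in low light. Over the 24 other libraries it had 0, 0.205 and 1.19 CPM (lowest, median and highest). PUCHI was thus close to absent before callus formation and again on SIM, and its 3 CIM groups overlapped.

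WOX5 (AT3G11260, chr3:3527575-3528433, plus strand), the homeobox gene of the root quiescent centre, was at 48.3, 44.7 and 52.6 CPM in hy5-2, 36.3, 39.4 and 40.1 CPM in Col-0 in high light and 40.0, 38.3 and 41.2 CPM in Col-0 in low light at CIM. Elsewhere it had 0, 0.426 and 3.02 CPM (lowest, median and highest of 24). All 3 hy5-2 values lay above all 6 Col-0 values, a difference that the test described below did not call. BBM (AT5G17430, chr5:5742542-5745568, minus strand), PLT1 (AT3G20840, chr3:7300675-7303693, plus strand) and PLT2 (AT1G51190, chr1:18977284-18980618, plus strand) are PLETHORA-type AP2 factors that maintain root stem cells. Their CIM libraries spanned 53.3 to 80.1 CPM for BBM, 35.9 to 85.8 CPM for PLT1 and 18.2 to 32.5 CPM for PLT2, and their highest other libraries reached 6.04, 14.3 and 3.85 CPM. Outside CIM, PLT1 had its highest group mean in hy5-2 at SIM 4 days, with 4.80, 6.08 and 14.3 CPM.

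Of 41 loci whose product name marks a lateral organ boundaries domain, 4 were among the genes. LBD16 (AT2G42430, chr2:17663444-17665295, plus strand), LBD18 (AT2G45420, chr2:18718348-18720729, plus strand) and LBD29 (AT3G58190, chr3:21548484-21549558, minus strand) act directly below auxin response factors in lateral root initiation, and LBD19 (AT2G45410, chr2:18712287-18713116, minus strand) is a close relative that lies 2 genes from LBD18. LBD16 had 40.7, 54.8 and 66.9 CPM over the CIM libraries (lowest, median and highest), against 1.65, 4.18 and 10.9 CPM elsewhere. LBD29 had 26.5, 30.2 and 42.9 CPM, against 0, 0.702 and 3.09 CPM elsewhere. LBD18 ranged over 34.5 to 42.9 CPM at CIM and reached 5.16 CPM elsewhere, and LBD19 over 7.25 to 12.7 CPM and 0.873 CPM. The 4 genes shared the peak but differed in their floor: LBD16 and LBD29 had their next highest group in hy5-2 at T0, and LBD18 and LBD19 in low-light Col-0 at SIM 4 days.

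The SHI-related zinc finger family, whose members STY1 and STY2 promote auxin synthesis, also gave 4 genes. STY2 was at 67.4, 78.9 and 100.2 CPM in CIM libraries (lowest, median and highest) and at 0, 5.10 and 15.7 CPM elsewhere. SRS5 ranged over 71.6 to 106 CPM and STY1 over 24.0 to 42.9 CPM at CIM, and SRS4, nearly silent outside CIM, over 12.8 to 16.1 CPM with at most 0.519 CPM elsewhere. The remaining factors include SOM (SOMNUS), a zinc finger repressor of seed germination, at 34.3 to 59.7 CPM, the NAC factor NAC3 of jasmonate and stress responses at 24.1 to 37.4 CPM, ATS (KANADI 4), which shapes the ovule integuments, at 26.4 to 52.4 CPM, and BS1 (TARGET OF MONOPTEROS 7), a mobile bHLH protein of root initiation in the embryo, at 12.8 to 22.9 CPM.

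**Figure D2:**
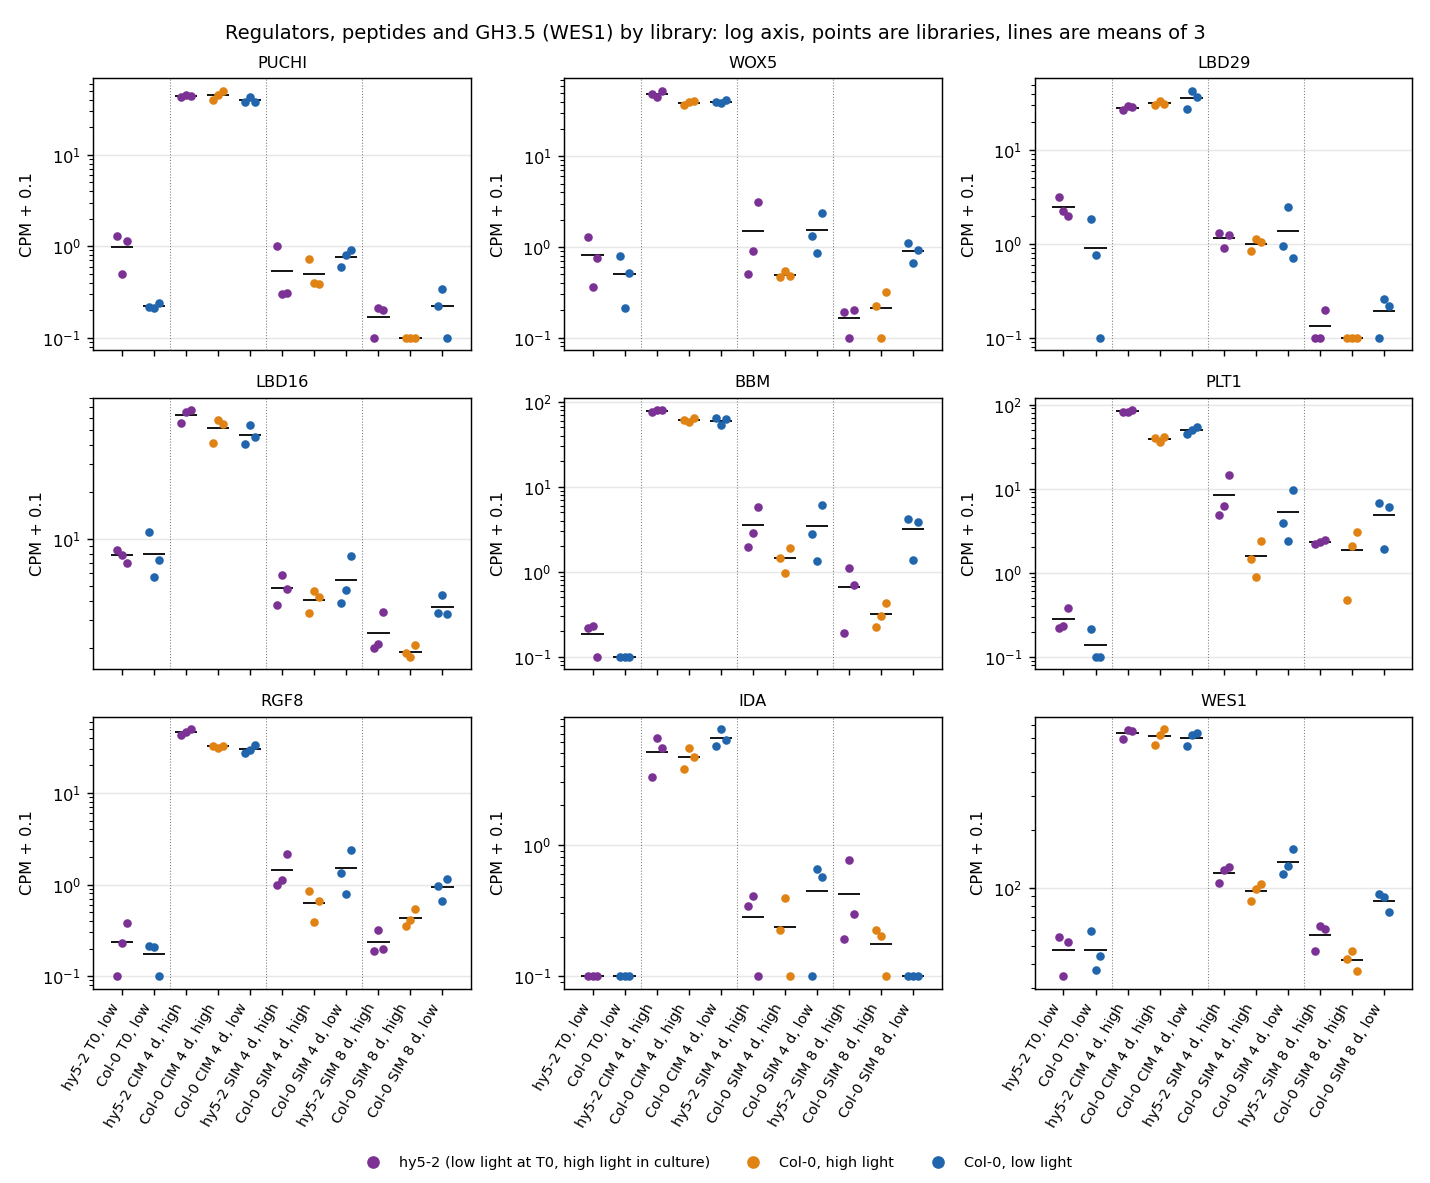
CPM + 0.1 on a log axis for 9 regulators in every library (points, coloured by genotype and light) with the mean of each group of 3 (line). In each gene every CIM point stands above every other point, and PLT1 separates hy5-2 (80.5 to 85.8 CPM) from Col-0 (35.9 to 53.4 CPM) at CIM.

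Secreted peptides, receptors and kinases made up 18 genes. RGF8 (AT2G03830, chr2:1171136-1172363, plus strand), also named GOLVEN 6, encodes a root meristem growth factor peptide. At CIM it had 42.7, 46.7 and 49.4 CPM in hy5-2, 32.5, 31.2 and 32.4 CPM in Col-0 in high light and 26.9, 29.0 and 33.3 CPM in Col-0 in low light, against 0, 0.373 and 2.28 CPM over the other libraries (lowest, median and highest). IDA (AT1G68765, chr1:25829952-25830487, minus strand), the peptide that triggers floral abscission and cell separation above emerging lateral roots, had 3.16, 5.37 and 7.44 CPM at CIM (lowest, median and highest) and at most 0.667 CPM elsewhere. Both peptide genes were thus close to silent outside CIM. Of 37 secreted peptide genes on a list matched by symbol, these were the only 2 among the 150.

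Among the kinases, RBK2, which binds ROP GTPases of polar growth, had a score of 4.64 and 52.0, 63.2 and 76.3 CPM at CIM (lowest, median and highest), against 0, 0.296 and 2.63 CPM elsewhere. There were 4 leucine-rich repeat receptor kinases, AT1G34110, AT5G48940, AT1G51830 and AT1G75640, which ranged over 246 to 357, 91.4 to 168, 87.8 to 129.9 and 66.5 to 91.0 CPM. AT1G34110 kept up to 52.8 CPM outside CIM and AT1G75640 no more than 9.74 CPM. AT1G51830 and its next neighbour AT1G51840, another kinase gene, peaked together.

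Hormone genes numbered 13. WES1 (AT4G27260, chr4:13653609-13656204, plus strand), also named GH3.5, conjugates auxin and salicylic acid to amino acids and is an early auxin-response gene. It had 593, 664 and 652 CPM in hy5-2, 553, 623 and 665 CPM in Col-0 in high light and 543, 622 and 633 CPM in Col-0 in low light at CIM. Outside CIM it was at 34.5, 68.8 and 159 CPM (lowest, median and highest), so it was never silent. It was 1 of 37 Aux/IAA and GH3 genes matched, and the only one of them among the 150.

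AIR12, an auxin-induced redox protein of the cell surface, was at 429, 566 and 666 CPM over the CIM libraries (lowest, median and highest) and at 18.8, 53.5 and 98.7 CPM elsewhere. MES17, which frees auxin from its methyl ester, was at 145 to 189 CPM, and NCED2, an enzyme of abscisic acid synthesis, at 10.9 to 20.0 CPM. E12A11 (MOTHER OF FT AND TFL1), a germination regulator, reached 386 to 679.5 CPM and a score of 4.22, but its interval overlaps a gene on the opposite strand by 606 bases. OSM34, an osmotin-type defence protein, was at 311 to 469.7 CPM at CIM and at up to 43.3 CPM elsewhere. CYP72C1, which inactivates brassinosteroids, was at 211 to 269.7 CPM.

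Cuticle, wax and other lipid genes formed a class of 16, and summed to 49.3 to 90.5 CPM at T0, 2469 to 4563 CPM at CIM, 129 to 286 CPM at SIM 4 days and 33.3 to 72.4 CPM at SIM 8 days. CYP77B1 (AT1G11600, chr1:3902012-3903782, plus strand), a cytochrome P450 that oxidises fatty acids, had the highest score of all. It had 199.7, 242 and 216 CPM in hy5-2, 153, 193 and 198 CPM in Col-0 in high light and 166, 179 and 163 CPM in Col-0 in low light, against 0, 1.11 and 4.97 CPM over the other libraries (lowest, median and highest). PDF1 (AT2G42840, chr2:17826116-17827536, minus strand), a proline-rich marker of the outermost cell layer, had 167, 220.0 and 277 CPM over the CIM libraries, against 0.372, 2.77 and 19.9 CPM. Both genes had their next highest group in high-light Col-0 at SIM 8 days, the stage that came second in 13 of the 150 genes.

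CDEF1, a cutinase that loosens the cuticle above emerging lateral roots, had 911, 1916 and 2299.5 CPM (lowest, median and highest at CIM) and reached 112 CPM elsewhere. PEL3, an acyltransferase of cutin assembly also named DCR, was at 36.3 to 58.2 CPM. FAR1, a fatty acid reductase that makes the primary alcohols of suberin, was at 101 to 129 CPM, and LUP2, a triterpene synthase, at 348 to 628 CPM. Of the ABC transporters of subfamily G, which export lipids and hormones, ABCG15 ranged over 76.5 to 128 CPM, ABCG31 over 58.2 to 144 CPM and ABCG13 over 19.7 to 34.8 CPM. AT1G75880, AT5G45670 and CDEF1 are the GDSL or SGNH hydrolases of the set.

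The 7 lipid transfer proteins, of 139 loci with that product name, summed to 5427 to 7327 CPM at CIM and to at most 435 CPM in any SIM library. AT4G15160 had the highest level of all 150 genes also per length, 4341 CPM per kb of exon averaged over CIM libraries, ahead of EARLI1 at 1188 and CDEF1 at 1100.4. AT4G15160 was at 3774, 4085 and 3745 CPM in hy5-2, 4967, 5436 and 5459.9 CPM in Col-0 in high light and 4677, 5487 and 5461 CPM in Col-0 in low light. All 3 hy5-2 values lay below the 6 Col-0 values, a difference from high-light Col-0 (-0.45 ± 0.23) that the test described below did not call (adjusted p = 0.215). EARLI1 and its next neighbour AT4G12490, a pair of proline-rich lipid transfer genes, were at 775 to 1350.2 and 40.6 to 104 CPM, and reads of such similar copies may be of uncertain origin. AT4G22470 (score 4.91), DIR1, a carrier in systemic defence, AT4G12545 and LTP6 completed the family at 270.2 to 384, 43.9 to 248, 28.9 to 93.4 and 10.6 to 21.3 CPM.

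Cell wall genes numbered 15. The 5 pectin-degrading genes of the pectin lyase fold were AT5G14650, PGAZAT, AT1G60590, AT1G10640 and AT2G43860, and the pectate lyase AT1G67750 stood beside them. AT5G14650 had 889, 1006 and 1119 CPM at CIM (lowest, median and highest), against 0.691, 5.37 and 168 CPM elsewhere. PGAZAT (ADPG2), a polygalacturonase of dehiscence and abscission zones, had 216, 287 and 341 CPM, against 0, 0.813 and 51.5 CPM. AT1G67750 had 553, 713 and 812 CPM, against 0.481, 13.4 and 34.1 CPM. AT1G60590, AT1G10640 and AT2G43860 ranged over 76.5 to 204, 71.6 to 174 and 4.50 to 9.38 CPM at CIM.

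BXL3, a beta-xylosidase, and CSLB01, a cellulose synthase-like protein, had scores of 4.29 and 4.09 with 50.5 to 138 and 73.8 to 169 CPM at CIM. EXPA17, an expansin known to loosen walls during lateral root formation, was at 28.5 to 57.3 CPM and was the only one of 23 expansins among the genes. UGE2, an epimerase of cell wall sugars, was the 150th gene at 27.9 to 38.7 CPM at CIM and 7.88 CPM or less elsewhere.

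Peroxidases and other oxidoreductases numbered 19. Of 62 loci named as peroxidase superfamily, 8 were among the genes: 7 class III peroxidases (AT2G18980, AT5G64120, AT5G64100, AT4G08780, AT5G14130, AT4G33870 and AT2G18140) and DOX1, an alpha-dioxygenase of fatty acids. AT2G18980 had 396, 514 and 636 CPM at CIM (lowest, median and highest), against 0.415, 4.51 and 18.8 CPM elsewhere. AT5G64120 (peroxidase 71) and its neighbour AT5G64100 ranged over 407 to 637 and 160.1 to 783 CPM, and DOX1 over 830.0 to 1158 CPM. The neighbours AT5G64120 and AT5G64100 may share reads as similar copies.

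AOX1B, a mitochondrial alternative oxidase, had 71.2, 86.6 and 112 CPM at CIM and a median of 0 CPM elsewhere, with at most 1.39 CPM. GulLO5, an aldonolactone oxidase, and AT5G02540, a Rossmann-fold protein, had scores of 4.18 and 4.26 at 194 to 293 and 82.1 to 139.7 CPM. The berberine-type oxidases AT1G30730 and AT1G30760 lie 5 genes apart and were at 180.4 to 285 and 614 to 839 CPM. The 5 cytochromes P450 of the set (CYP77B1, CYP72C1, CYP76C2, CYP709B2 and CYP89A2) belong to 5 different families.

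Transporters numbered 6. SAG29 (SWEET15), a sugar exporter, ranged over 120.1 to 189 CPM at CIM and had 0.374, 1.38 and 12.6 CPM elsewhere (lowest, median and highest). UMAMIT25, of the amino acid exporter family, was at 272 to 432 CPM, LHT1, which imports amino acids, at 166 to 403 CPM, and PHT1;1, the main root phosphate importer, at 22.4 to 98.5 CPM. Among 8 proteases, inhibitors and chitinases were the neighbouring serine protease inhibitor genes UPI and AT5G43570, at 412 to 649 and 76.5 to 97.9 CPM. A further 21 genes had no clear role, among them SVB, a DUF538 protein of trichome branching, at 594 to 914 CPM.

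The genes were spread over the chromosomes as 34, 27, 25, 28 and 36 from chromosome 1 to 5. Of all pairs, 5 were next neighbours and 13, with 26 genes, lay at most 5 genes apart. Median exon length was 1535.5 bases for the 150 genes and 1580 bases for all protein-coding loci, and 24% against 18.9% had a single exon. The intervals of 9 genes overlap another locus, so that some of their reads may be of uncertain origin. These are E12A11, AT1G55200, ALPHA-VPE, AT4G17350, AT5G14130, AT5G47440, ORP4B, AT4G19645 and AT5G45720. The overlaps run from 7 bases in AT5G14130 to 658 bases in ORP4B. Over the CIM libraries the tRNA locus at AT5G45720 had 0 counts and the locus at ORP4B 32, against 4148 of ORP4B. The locus at AT5G47440 had 5492 counts, against 1933 of AT5G47440.

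Comparisons that the choice of genes did not fix were tested with edgeR's quasi-likelihood F test on the raw counts, two-sided, with Benjamini-Hochberg adjustment over 20842 genes. A gene is said to have risen or fallen at an adjusted p under 0.05, log2 fold changes are given ± SE, and CPM values are those of the 3 libraries of a group. All 150 genes passed the filter on low counts through their CIM libraries: 131 had at least 10 counts in 3 or more libraries outside CIM and 11 had fewer than 10 in each.

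High light against low light in Col-0 at CIM asks whether light changed the callus peak. The rule required the peak in both lights, so only its size could differ. Of the 150 genes, 5 rose and 23 fell in high light, 28 in all (18.7%), where 8.29% of all tested genes were called (5.14% higher and 3.14% lower). The median log2 fold change was -0.07, against -0.01 over all genes, and 143 genes stayed within 2-fold by the fitted value. Bins of 0.5 starting at -1, -0.5, 0 and 0.5 held 10.7, 50.7, 30 and 4% of the 150 genes. The same bins held 3.05, 49.1, 38.0 and 4.13% of all tested genes. The score used the lowest CIM group, so the choice of genes disfavoured large differences at CIM. A fit of the 2 groups alone called 38 genes (8 higher and 30 lower), where 8.38% of all genes were called (5.37% and 3.02%). The rule required counts at CIM of the 150 genes but not of all tested genes, so these shares were not matched for level. Cell wall genes gave 3 rises and 5 falls among 15, peroxidases and oxidoreductases 0 and 5 among 19, and transcription factors 0 and 1 among 21.

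The largest rises in high light were in AT3G07620 and DIR1. AT3G07620, a glycosyltransferase gene, was at 55.2, 43.3 and 43.3 CPM in high light and 11.2, 6.86 and 8.86 CPM in low light, a rise of 2.39 ± 0.26 (adjusted p = 1.63e-05). DIR1 was at 248, 236 and 208 CPM in high light and 43.9, 62.5 and 50.7 CPM in low light, a rise of 2.11 ± 0.18 (adjusted p = 9.02e-09). In both genes every high-light library lay above every low-light one. Next came the pectin lyase-fold genes AT1G60590, at 204, 164 and 148 against 91.6, 86.8 and 76.5 CPM (0.99 ± 0.19, adjusted p = 0.000673), and AT1G10640, at 174, 158 and 146 against 89.9, 85.8 and 83.6 CPM (0.85 ± 0.15, adjusted p = 0.000397). The call of AT1G60590 was lost in DESeq2 (adjusted p = 0.135).

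The largest fall in high light was in PHT1;1, at 22.4, 33.2 and 41.0 CPM in high light and 79.5, 98.5 and 93.8 CPM in low light (-1.52 ± 0.24, adjusted p = 8.18e-05). The peroxidase gene AT5G64100 was at 160.1, 265 and 344 CPM in high light and 555, 711 and 783 CPM in low light (-1.44 ± 0.32, adjusted p = 0.00455, and 0.0501 in DESeq2). Both genes varied about 2-fold among the high-light libraries, yet none reached the low-light range. PIRL8, an intracellular leucine-rich repeat protein, was at 17.1, 22.4 and 23.8 against 52.1, 52.3 and 50.3 CPM (-1.31 ± 0.17, adjusted p = 2.35e-06). LAS1, a lanosterol synthase, was at 4.79, 4.89 and 6.69 against 13.7, 10.6 and 12.6 CPM (-1.19 ± 0.22, adjusted p = 0.00034).

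Wall genes also fell: BXL3 by 0.99 ± 0.16 (adjusted p = 8.45e-05), CSLB01 by 0.91 ± 0.12 (adjusted p = 5.11e-06) and EXPA17 by 0.82 ± 0.13 on the log2 scale (adjusted p = 2.69e-05). AOX1B fell by 0.57 ± 0.10 (adjusted p = 0.000223). Among the regulators SOM fell by 0.47 ± 0.14 (adjusted p = 0.0271, but 0.0681 in DESeq2), a call also lost without low-light replicate 2 or 3 or high-light replicate 1 or 3 (adjusted p up to 0.237). PUCHI, WOX5, the 4 LBD genes, BBM, PLT1, PLT2, the 4 SHI-related genes, RGF8, IDA, WES1 and PDF1 were all uncalled between lights at CIM. This holds for the main fit, which had no replicate block. For PLT1 the difference was -0.36 ± 0.27 (adjusted p = 0.546), with 40.3, 35.9 and 41.2 CPM in high light and 45.0, 49.3 and 53.4 CPM in low light. For WOX5 it was -0.07 ± 0.16 (adjusted p = 0.894) and for PUCHI 0.16 ± 0.11 (adjusted p = 0.506).

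Markers of green tissue moved with the light. The 7 photosynthetic tissue markers summed to 370 to 574 CPM in high-light Col-0 and 180 to 201 CPM in low-light Col-0 at CIM, 4 of them rising and none falling, and none was at 0. The 9 xylem markers summed to 257 to 302 CPM in high light and 193 to 256 CPM in low light, with no calls. Their part in the results was not tested.

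The hy5-2 mutant against Col-0, both in high light at CIM, asks what HY5 changed in the callus peak. The rule required the peak in both genotypes, so here too only its size could differ. Of the 150 genes, 31 rose and 16 fell in hy5-2, 47 in all (31.3%), where 15.5% of all tested genes were called (6.37% higher and 9.15% lower). The median log2 fold change was 0.06, against 0.01 over all genes, and 146 genes stayed within 2-fold. Bins of 0.5 starting at -1, -0.5, 0 and 0.5 held 9.33, 35.3, 34.7 and 18% of the 150 genes. The same bins held 5.12, 38.1, 47.3 and 3.29% of all tested genes. Here too the choice of genes disfavoured large differences at CIM. Transcription factors gave 5 rises and 0 falls among 21, cuticle and lipid genes 7 rises and 1 fall among 16, peptides, receptors and kinases 6 and 1 among 18, and cell wall genes 1 and 3 among 15. This comparison shares the high-light Col-0 libraries with the one between lights. As there, the shares of genes called were not matched for level at CIM. The count was 31 without hy5-2 replicate 3, and 72 in a fit of the 2 groups alone (42 higher and 30 lower), where 15.5% of all genes were called (5.72% higher and 9.79% lower). With the replicate number as a block, 65 of the 150 genes were called (41 higher and 24 lower).

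PLT1 was at 81.7, 80.5 and 85.8 CPM in hy5-2 and 40.3, 35.9 and 41.2 CPM in Col-0, a rise of 1.08 ± 0.26 (adjusted p = 0.00568, but 0.162 in DESeq2). PLT2 was at 29.9, 29.1 and 32.5 CPM in hy5-2 and 19.8, 18.2 and 21.6 CPM in Col-0, a rise of 0.62 ± 0.17 (adjusted p = 0.0127, and 0.0821 in DESeq2). The groups did not overlap in either gene. The PLT2 call was also lost without Col-0 replicate 2 (adjusted p = 0.0689, change 0.56) or hy5-2 replicate 3 (adjusted p = 0.0749, change 0.57). RGF8 was at 42.7, 46.7 and 49.4 CPM in hy5-2 and 32.5, 31.2 and 32.4 CPM in Col-0 (0.53 ± 0.12, adjusted p = 0.00283). These 3 genes were separated between genotypes. SRS5 rose by 0.45 ± 0.12 (adjusted p = 0.0066) and ATS by 0.76 ± 0.15 (adjusted p = 0.000623).

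Other regulators did not pass between genotypes in the main fit, which had no replicate block. BBM differed by 0.36 ± 0.20 (adjusted p = 0.264), WOX5 by 0.33 ± 0.15 (adjusted p = 0.161), LBD16 by 0.28 ± 0.15 (adjusted p = 0.212) and PUCHI by -0.03 ± 0.11 (adjusted p = 0.921). WES1 differed by 0.05 ± 0.15 (adjusted p = 0.872) and PDF1 by 0.40 ± 0.26 (adjusted p = 0.337).

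The largest rise in hy5-2 was in AT1G29600, a CCCH zinc finger gene, at 11.8, 13.0 and 15.6 CPM in hy5-2 and 4.62, 3.85 and 5.19 CPM in Col-0 (1.57 ± 0.20, adjusted p = 3.68e-06). AT5G45720, an AAA-type ATPase gene that overlaps a tRNA locus, was at 34.2, 29.4 and 36.4 against 15.2, 14.9 and 15.8 CPM (1.12 ± 0.14, adjusted p = 3.98e-07). PHT1;1 was at 37.1, 86.3 and 68.6 CPM in hy5-2 and 22.4, 33.2 and 41.0 CPM in Col-0 (0.99 ± 0.23, adjusted p = 0.0047). Its groups overlapped, and the call was lost in a fit of the 2 groups alone (adjusted p = 0.184) and without hy5-2 replicate 2 (adjusted p = 0.0534, change 0.71).

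The largest falls in hy5-2 are given with the low-light Col-0 values beside them, since both comparisons use the high-light Col-0 libraries. DIR1 was at 143, 96.0 and 97.9 CPM in hy5-2, 248, 236 and 208 CPM in high-light Col-0 and 43.9, 62.5 and 50.7 CPM in low-light Col-0, and differed between genotypes by -1.04 ± 0.17 (adjusted p = 8.01e-05). AT1G10640 was at 104, 71.6 and 83.2 CPM in hy5-2 (-0.88 ± 0.15, adjusted p = 0.000148). AT1G60590 was at 102, 79.2 and 92.6 CPM in hy5-2 (-0.92 ± 0.18, adjusted p = 0.000884, and 0.123 in DESeq2). The hy5-2 levels of these pectin lyase-fold genes overlapped those of low-light Col-0, and those of DIR1 lay between the Col-0 groups. ZIP9, a zinc transporter, was at 12.9, 17.6 and 16.5 CPM in hy5-2 and 23.3, 30.6 and 28.1 CPM in Col-0 (-0.80 ± 0.20, adjusted p = 0.00668).

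At CIM the 7 photosynthetic tissue markers summed to 62.6 to 107 CPM in hy5-2 and 370 to 574 CPM in high-light Col-0, all 7 of them falling and none at 0. The 9 xylem markers summed to 160 to 181 CPM in hy5-2 and 257 to 302 CPM in Col-0, with 7 falls. The 7 epidermis and stomata markers include PDF1, which was chosen for its peak at CIM and made up most of their sum. They summed to 271 to 320 CPM in hy5-2 and 201 to 256 CPM in Col-0, with 1 rise among the 4 tested, and 1 marker was at 0 in Col-0. Their part in the results was not tested.

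Of the wider pathway lists, the 21 tested root stem cell and callus regulators had no calls between lights at CIM in the main fit. Their median log2 fold change was -0.04, against -0.01 over all genes. Between genotypes 5 rose and 1 fell (median 0.18, against 0.01 over all genes). PLT1, PLT2, PLT3, SCR and WOX7 rose, PLT3 by 0.42 ± 0.07 (adjusted p = 3.84e-05) and SCR, a partner of WOX5 in the stem cell niche, by 0.75 ± 0.11 (adjusted p = 3.99e-06). WOX11 fell by 0.54 ± 0.17 (adjusted p = 0.0248). Of 33 Aux/IAA and GH3 genes 8 fell and none rose in hy5-2 (median log2 fold change -0.14). Of 31 cell cycle and replication genes 10 rose and none fell (median 0.17). Of all tested genes 9.15% fell and 6.37% rose in hy5-2. Of 27 secreted peptide genes 4 rose, RGF8 among them. Between lights these 3 lists gave 1 rise and 1 fall, no calls, and 1 rise and 2 falls. No matched gene of the cell cycle, auxin transport, cytokinin, receptor, root cap or embryo lists was among the 150. Only 12 of 18 receptor symbols and 1 of 4 root cap symbols matched a single locus. The unmatched receptor symbols include RGFR1, RGFR2 and RGFR3, and the 150 hold the 4 leucine-rich repeat receptor kinases named above. Whether these or other unmatched genes of the lists are among the 150 was not checked, so an absence of receptors cannot be read from the matched symbols.

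**Figure D3:**
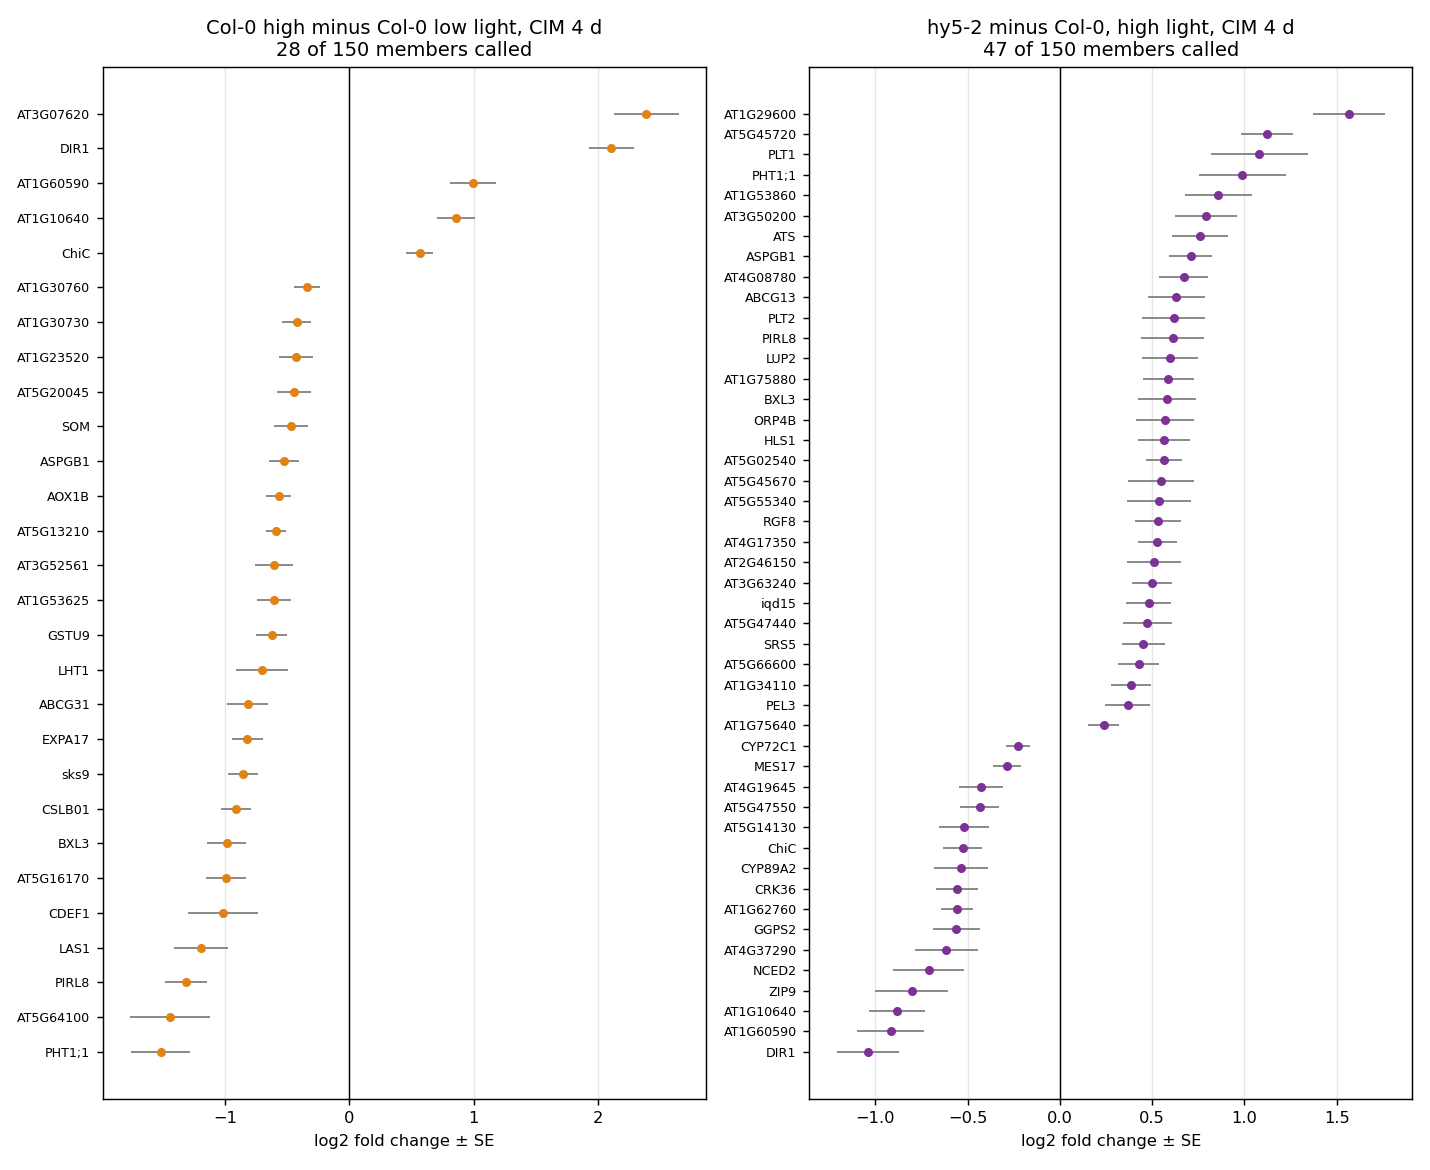
Log2 fold change ± SE of the genes called at CIM 4 days, 28 between lights in Col-0 (left panel) and 47 between genotypes in high light (right panel), sorted by size. Most points lie within 1 of 0, with AT3G07620 and DIR1 far above in high light and AT1G29600 in hy5-2; both panels use the same high-light Col-0 libraries.

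Low-light Col-0 at SIM 4 days against T0 asks what remained of the peak after the change of medium. The rule held both stages low but set no order between them. At SIM 4 days 94 of the 150 genes had risen above T0 and 12 had fallen (106, or 70.7%), where 78.8% of all tested genes were called (39.7% higher and 39.0% lower). The median log2 fold change was 2.01, or 1.58 when the 22 genes with an empty group were set to their bound or to 0, against 0.03 over all genes. All 150 genes passed the low-count filter through their CIM libraries. In a fit of the 2 groups alone 44 of them fell below it, and of the other 106 genes 67 rose and 7 fell (74, or 69.8%), where 78.4% of all genes were called (39.8% higher and 38.6% lower). The median log2 fold change of those 106 was 1.33, against 0.03 over all genes. The share called was thus below that of all genes in both fits, with most calls upward. Of the cell type markers, all 6 root hair markers rose, all 6 endodermis and all 7 photosynthetic tissue markers fell, and 2 of 9 xylem markers rose and 6 fell. Of the 4 epidermis and stomata markers tested 3 fell and none rose, and of 8 phloem markers 4 rose and 4 fell. The root hair markers summed to 99.9 to 182 CPM at SIM 4 days and 0.276 to 0.661 CPM at T0, where 2 of them were at 0, and the endodermis markers to 30.7 to 44.0 CPM and 290 to 301 CPM, none at 0. Xylem markers summed to 632 to 848 CPM at SIM 4 days and 743 to 867 CPM at T0, none at 0. Their part in the results was not tested.

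EXPA17 had no count in the T0 libraries and 3.18, 4.39 and 3.16 CPM at SIM 4 days, at least 30.3-fold higher. Bounds use 3 counts over the group. BBM, also without a count at T0, had 2.69, 1.25 and 6.04 CPM and was at least 28.9-fold higher, and AT4G12545 at least 41.4-fold. UMAMIT25 was at 24.4, 46.2 and 27.7 CPM at SIM 4 days and 0, 0 and 0.138 CPM at T0. STY2 rose by 5.73 ± 0.49 (adjusted p = 1.09e-11), SRS5 by 4.76 ± 0.34 (adjusted p = 8.33e-14) and LBD18 by 2.20 ± 0.26 (adjusted p = 4.47e-09).

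Some regulators were lower than at T0. STY1 fell by 0.89 ± 0.40 on the log2 scale (adjusted p = 0.0446). Its call was lost without T0 replicate 2 (adjusted p = 0.297, change -0.56) and without SIM 4 days replicate 1 or 2 (adjusted p = 0.104 and 0.184). LBD16 fell by 0.79 ± 0.25 on the log2 scale (adjusted p = 0.0053), a call lost without T0 replicate 1 (adjusted p = 0.121, change -0.47). The HAD-type hydrolase gene AT5G02230 was at 3.18, 4.18 and 5.30 CPM at SIM 4 days and 10.5, 11.9 and 11.6 CPM at T0 (-1.66 ± 0.22, adjusted p = 5.25e-08). AT1G29600 and AT2G43860 had 8 counts each over the T0 libraries and 0 and 1 at SIM 4 days. Both were called lower but fell below the low-count filter of the 2 groups alone, so these counts carry no fold. SBT1.3, a subtilase, was at 0.855, 0.348 and 1.75 against 0.691, 1.98 and 8.71 CPM, a call (-2.08 ± 0.63, adjusted p = 0.00447) lost in a fit of the 2 groups alone (adjusted p = 0.142) and without T0 replicate 3 (adjusted p = 0.308, change -0.71).

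SIM 8 days against SIM 4 days asks whether the remainder went on declining, and it was measured in 3 arms. In hy5-2, 4 of the 150 genes rose and 87 fell (91, or 60.7%), where 19.8% of all genes were called (8.71% higher and 11.1% lower). In high-light Col-0, 8 rose and 79 fell (87, or 58%), where 22.4% were called (12.0% and 10.5%). In low-light Col-0, 2 rose and 75 fell (77, or 51.3%), where 14.9% were called (6.65% and 8.23%). With the replicate number as a block, 82 genes were called in that arm (3 higher and 79 lower). Median log2 fold changes were -1.27, -1.29 and -1.02, or -1.24, -1.23 and -0.98 when genes with an empty group were set to their bound or to 0, against 0.00, 0.01 and 0.01 over all genes. In all 3 arms 57 genes fell (38% of the 150), against 4.65% of all genes. In fits of the 2 groups alone 107, 106 and 111 genes passed the low-count filter in hy5-2, high-light Col-0 and low-light Col-0. Of these, 4 rose and 74 fell in hy5-2 (72.9% called), 4 rose and 67 fell in high-light Col-0 (67%) and 0 rose and 58 fell in low-light Col-0 (52.3%), where 22.1% of all genes (10.2% higher and 11.9% lower), 16.3% (8.18% and 8.08%) and 13.3% (5.86% and 7.4%) were called. The change itself differed between high-light and low-light Col-0 for 8 of the 150 genes, 3 upward and 5 downward, where 2.79% of all genes differed.

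Markers of several cell types fell over the same days, and those of others rose. Of 9 xylem markers 8 fell in hy5-2, 8 in high-light Col-0 and 9 in low-light Col-0, and of 6 root hair markers 5 fell in each arm. The xylem markers summed to 258 to 348 CPM at 8 days and 524 to 653 CPM at 4 days in hy5-2, 380 to 466 CPM and 664 to 737 CPM in high-light Col-0, and 195 to 227 CPM and 632 to 848 CPM in low-light Col-0. The root hair markers summed to 59.8 to 90.6 CPM at 8 days and 138 to 231 CPM at 4 days in hy5-2, 34.5 to 41.2 CPM and 49.9 to 111 CPM in high-light Col-0, and 48.2 to 67.0 CPM and 99.9 to 182 CPM in low-light Col-0. Of 6 endodermis markers 5 fell in hy5-2, 1 rose and 1 fell in high-light Col-0, and 3 fell in low-light Col-0, with sums of 30.2 to 37.6 CPM at 8 days and 61.0 to 70.6 CPM at 4 days in hy5-2, 29.2 to 36.2 CPM and 33.1 to 36.1 CPM in high-light Col-0, and 26.0 to 33.3 CPM and 30.7 to 44.0 CPM in low-light Col-0. In these lists 1 endodermis marker was at 0, in low-light Col-0 at 8 days. Of 14 shoot meristem and boundary genes 9, 8 and 5 rose and none fell, and of 7 photosynthetic tissue markers 6, 6 and 0 rose, in the same order of arms. Of 8 phloem markers 4, 6 and 4 rose and none fell, in that order too. Of the 4 epidermis and stomata markers tested, 2 fell in hy5-2, 1 rose and 1 fell in high-light Col-0, and 2 fell in low-light Col-0. The part of all these markers in the results was not tested.

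Among the steepest falls were those of CDEF1 and PGAZAT. CDEF1 was at 0.361, 0.444 and 0.298 CPM at 8 days and 63.6, 57.6 and 56.8 CPM at 4 days in hy5-2 (-7.28 ± 0.66, adjusted p = 2.28e-08). In high-light Col-0 it was at 0.125, 0 and 0 against 57.2, 57.8 and 54.5 CPM, and in low-light Col-0 at 0.499, 0.401 and 0.824 against 50.6, 112 and 73.4 CPM (-7.11 ± 0.61, adjusted p = 7.23e-09). PGAZAT was at 0.271, 0 and 0.298 against 27.9, 23.8 and 22.9 CPM in hy5-2 (-6.87 ± 0.53, adjusted p = 9.87e-10). It was at 0.125, 0.206 and 0 against 36.2, 31.6 and 23.5 CPM in high-light Col-0 and 0.125, 0.320 and 0.589 against 23.9, 51.5 and 36.0 CPM in low-light Col-0 (-6.70 ± 0.45, adjusted p = 9.15e-11). Transcripts of both genes were thus nearly gone by 8 days in every arm. UMAMIT25 fell by 4.98 ± 0.38, 5.01 ± 0.36 and 5.47 ± 0.36 on the log2 scale in hy5-2, high-light Col-0 and low-light Col-0 (adjusted p = 4.47e-10, 1.88e-10 and 3.3e-11).

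Genes without a count at 8 days give bounds. Of those named here, AOX1B in both arms, LBD29 and AT4G12490 fell below the low-count filter of the 2 groups alone. In high-light Col-0, GGPS2, a prenyl diphosphate synthase, was at least 22.1-fold lower, ZIP9 at least 15.2-fold and LBD29 at least 8.33-fold lower. AOX1B was at least 3.80-fold lower in hy5-2 and at least 7.49-fold in low-light Col-0. AT4G12490 was at least 11.4-fold lower in low-light Col-0 (adjusted p = 0.0323). That call was lost when SIM 4 days replicate 1 or 2 or any SIM 8 days replicate was left out, with adjusted p up to 0.122 (change -6.14 without SIM 4 days replicate 2).

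Among regulators and auxin genes, LBD18 fell by 1.59 ± 0.26 in hy5-2, 1.41 ± 0.22 in high-light Col-0 and 1.35 ± 0.21 in low-light Col-0 (adjusted p = 2.91e-05, 1.36e-05 and 1.06e-05). STY2 fell by 1.50 ± 0.25, 1.03 ± 0.22 and 1.12 ± 0.22 in the same order (adjusted p = 3.67e-05, 0.00101 and 0.000482). WES1 fell by 1.05 ± 0.16, 1.20 ± 0.17 and 0.64 ± 0.16 (adjusted p = 2.97e-05, 7.78e-06 and 0.00549), the last a call lost without SIM 4 days replicate 3 (adjusted p = 0.0559, change -0.50).

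**Figure D4:**
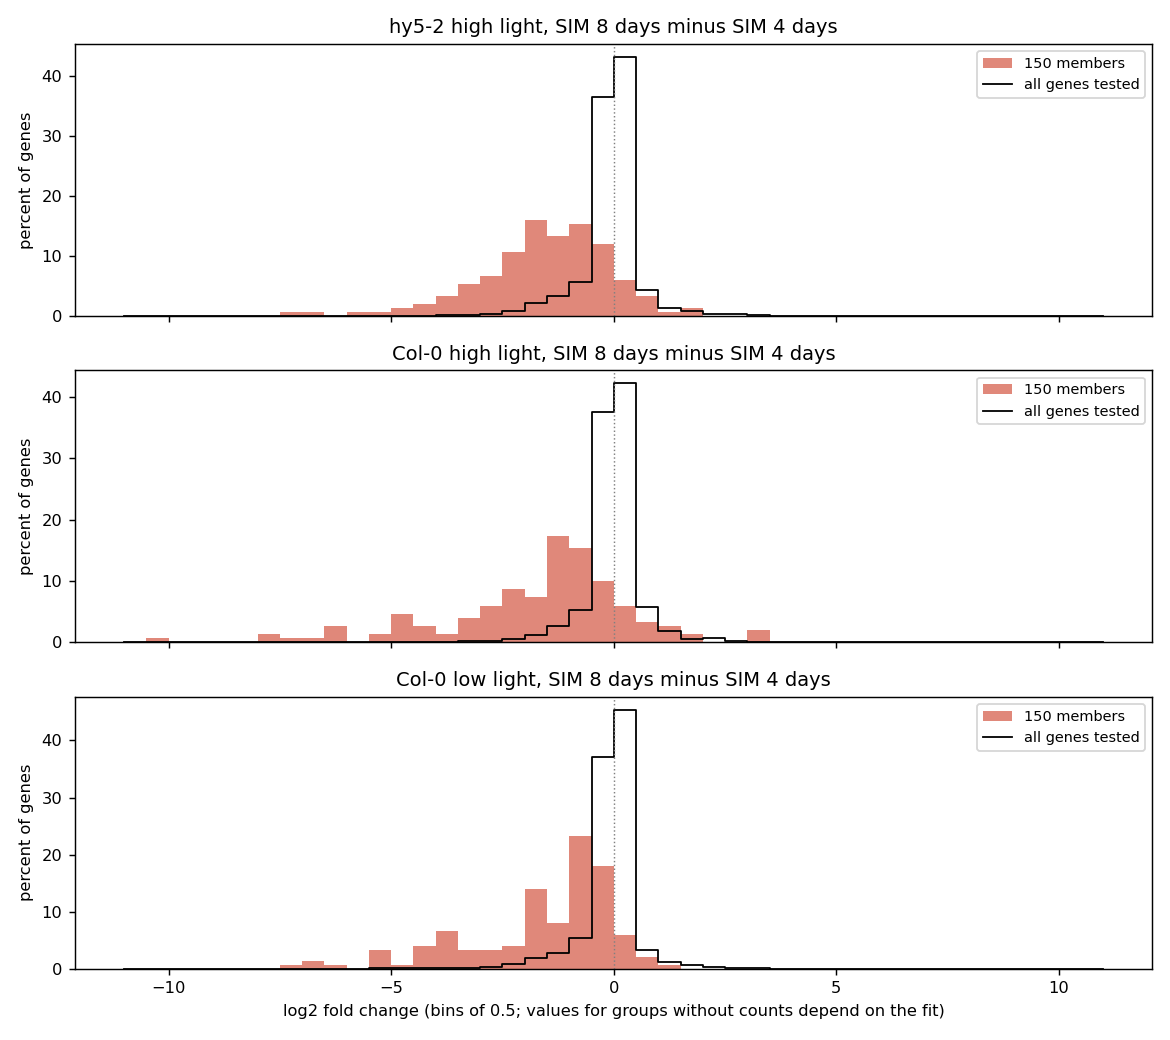
Percent of genes by log2 fold change between SIM 8 days and SIM 4 days, in bins of 0.5, for the 150 genes (bars) and all tested genes (line), in hy5-2, high-light Col-0 and low-light Col-0 from top to bottom. The bars sit left of 0 in every arm, with medians of -1.27, -1.29 and -1.02, while the line is centred on 0.

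The 8 genes that rose in high-light Col-0 were PDF1, LTP6, SBT1.3, CYP77B1, PEL3, ASPGB1, AT5G02230 and MES17. PDF1 was at 11.5, 7.20 and 15.9 CPM at 8 days and 0.372, 1.09 and 1.23 CPM at 4 days, a rise of 3.48 ± 0.65 (adjusted p = 0.000327). In hy5-2 it differed by -0.28 ± 0.67 (adjusted p = 0.855) and in low-light Col-0 by -1.18 ± 0.71 (adjusted p = 0.348). SBT1.3 was at 3.13, 2.68 and 5.03 against 0.248, 0.146 and 0.614 CPM (3.166 ± 0.73, adjusted p = 0.00219). PEL3 was at 4.14, 5.35 and 7.32 against 3.47, 2.11 and 2.36 CPM (1.17 ± 0.24, adjusted p = 0.000386). In PDF1, SBT1.3 and PEL3 all 3 libraries at 8 days stood above those at 4 days.

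LTP6 was at 0.878, 0.926 and 3.171 against 0.248, 0.0729 and 0.189 CPM in high-light Col-0, below the low-count filter of the 2 groups alone (3.27 ± 0.91, adjusted p = 0.0097), a call lost without SIM 8 days replicate 3 (adjusted p = 0.144, change 2.40). CYP77B1 was at 2.38, 2.47 and 3.61 against 0.744, 0.729 and 1.13 CPM (1.60 ± 0.50, adjusted p = 0.022). That call was lost without SIM 4 days replicate 2 (adjusted p = 0.069, change 1.47) or SIM 8 days replicate 3 (adjusted p = 0.118, change 1.38). In low-light Col-0, CYP77B1 was at 0.748, 1.36 and 0.471 against 1.95, 1.74 and 4.97 CPM, a fall (-1.67 ± 0.51, adjusted p = 0.0261) that rested on single libraries. It was lost without SIM 4 days replicate 3 (adjusted p = 0.342, change -0.93), SIM 8 days replicate 1 or 3 (adjusted p = 0.0799 and 0.111) and in a fit of the 2 groups alone (adjusted p = 0.0704). CDEF1, of the same class, fell in all arms. Among the 16 cuticle and lipid genes, 3 rose and 8 fell in high-light Col-0, 0 rose and 11 fell in hy5-2, and 0 rose and 11 fell in low-light Col-0.

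Rises in the other arms were smaller. AT2G04090, a MATE efflux gene, rose by 0.84 ± 0.22 in hy5-2 (adjusted p = 0.00538) and MES17 by 0.53 ± 0.12 (adjusted p = 0.0015). AT5G47550, a cystatin gene, rose by 0.52 ± 0.15 (adjusted p = 0.00935), a call lost without replicate 3 of SIM 4 days (adjusted p = 0.0535, change 0.46) or of SIM 8 days (adjusted p = 0.0507, change 0.46). AT5G02230 rose by 1.05 ± 0.22 in low-light Col-0 (adjusted p = 0.000893, but 0.0733 in a fit of the 2 groups alone). In hy5-2 it rose by 0.79 ± 0.24 (adjusted p = 0.0184). That call was lost without SIM 4 days replicate 1 or 3 or SIM 8 days replicate 1 or 2, with adjusted p up to 0.0844 (change 0.71 without SIM 4 days replicate 1). AT2G04090 in low-light Col-0 rose by 0.77 ± 0.25 (adjusted p = 0.0337), a call lost without SIM 4 days replicate 1 or 3 or SIM 8 days replicate 2 or 3. Its adjusted p was then up to 0.272 (change 0.53 without SIM 8 days replicate 3).

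High light against low light in Col-0 at SIM 8 days compares the residual levels late in shoot induction. In high light 13 of the 150 genes stood above their low-light level and 33 below it (46, or 30.7%), where 27.6% of all genes were called (16.0% higher and 11.6% lower). The median was -0.36, or -0.26 when genes with an empty group were set to their bound or to 0, against -0.01 over all genes. In a fit of the 2 groups alone 81 of the 150 genes passed the low-count filter, of which 10 were above and 25 below (35, or 43.2%), where 22.2% of all genes were called (14.3% higher and 7.9% lower). How far the share stood above that of all genes thus depended on the genes counted. The high-light libraries are those used in the comparison with SIM 4 days. Cuticle and lipid genes gave 4 rises and 1 fall among 16, and transcription factors 0 rises and 6 falls among 21. The count was 30 without high-light replicate 1. The light effect differed between SIM 8 days and CIM for 22 of the 150 genes, where 10.6% of all genes differed.

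Of the genes described next, LTP6, AT5G43570 and GulLO5 fell below the low-count filter of the 2 groups alone. PDF1 was at 11.5, 7.20 and 15.9 CPM in high light and 1.50, 2.56 and 1.53 CPM in low light (2.51 ± 0.63, adjusted p = 0.00359). EARLI1 was at 9.03, 8.03 and 14.0 CPM in high light and 0.997, 1.76 and 0.589 CPM in low light (3.07 ± 0.87, adjusted p = 0.01). Both genes were separated between lights in every library. LTP6 (2.53 ± 0.91, adjusted p = 0.0397) lost its call without any low-light replicate or high-light replicate 3, with adjusted p up to 0.301 (change 1.66 without high-light replicate 3). AT1G67750 (2.49 ± 0.79, adjusted p = 0.0202) lost it without low-light replicate 1 or 2 or high-light replicate 1 or 3, with adjusted p up to 0.0774 (change 2.36 without low-light replicate 2). The peroxidase gene AT5G64120 was at 31.7, 32.7 and 59.5 against 5.61, 9.53 and 8.95 CPM (2.30 ± 0.31, adjusted p = 3.14e-06).

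Of the genes lower in high light at SIM 8 days, AT4G12545 was at 0.125, 0.412 and 0.437 CPM in high light and 6.48, 6.33 and 5.42 CPM in low light (-4.17 ± 0.80, adjusted p = 0.000336). BBM was at 0.125, 0.206 and 0.328 CPM in high light and 4.11, 1.28 and 3.77 CPM in low light (-3.62 ± 0.93, adjusted p = 0.00464). The groups did not overlap in either gene. AT5G43570 was at 0, 0.206 and 0.328 against 1.25, 0.801 and 2.24 CPM (-2.81 ± 0.64, adjusted p = 0.00118). GulLO5, at 0.125, 0.206 and 0 against 1.25, 0.561 and 1.295 CPM (adjusted p = 0.0485), lost its call without low-light replicate 1 or 3 or any high-light replicate, with adjusted p up to 0.157 (change -2.45 without high-light replicate 3). WES1 was lower by 1.05 ± 0.17 on the log2 scale (adjusted p = 2.75e-05).

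The hy5-2 mutant against high-light Col-0 at SIM 8 days uses the same Col-0 libraries. In hy5-2, 15 of the 150 genes were above Col-0 and 5 below it (20, or 13.3%), where 23.5% of all genes were called (10.1% higher and 13.4% lower). The median was 0.25, or 0.10 when genes with an empty group were set to their bound or to 0, against 0.01 over all genes. In a fit of the 2 groups alone 79 genes passed the low-count filter, of which 15 were above and 7 below (22, or 27.8%), where 20.5% of all genes were called (8.26% higher and 12.2% lower), and 12 of the 22 were among the 20. The share was thus below that of all genes in the first fit and above it in the second. AT5G43570 and GulLO5, described below, did not pass that filter. The count was 11 or 13 without Col-0 replicate 1 or 3, and 13 or 12 without hy5-2 replicate 2 or 3. The genotype effect differed between SIM 8 days and CIM for 23 of the 150 genes, where 12.9% of all genes differed. PDF1 was at 3.25, 3.56 and 2.68 CPM in hy5-2, against 11.5, 7.20 and 15.9 CPM in Col-0 (-1.82 ± 0.56, adjusted p = 0.0194). The call was lost without Col-0 replicate 3 (adjusted p = 0.104, change -1.52), hy5-2 replicate 1 (adjusted p = 0.0551, change -1.85) or hy5-2 replicate 3 (adjusted p = 0.0649, change -1.73).

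ABCG15 was at 1.36, 2.22 and 1.89 CPM in hy5-2 and 3.51, 4.63 and 6.78 CPM in Col-0 (-1.44 ± 0.33, adjusted p = 0.00138), and PEL3 at 2.44, 3.11 and 2.68 CPM in hy5-2 and 4.14, 5.35 and 7.32 CPM in Col-0 (-1.01 ± 0.25, adjusted p = 0.00251). These lipid genes were lower in every hy5-2 library. AT1G10640 fell by 0.86 ± 0.27 (adjusted p = 0.0233, and 0.137 in a fit of the 2 groups alone). That call was lost without Col-0 replicate 3 (adjusted p = 0.398, change -0.31) or hy5-2 replicate 1 or 2 (adjusted p = 0.0877 and 0.0808).

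AT4G12545 was at 6.78, 7.56 and 6.96 CPM in hy5-2 and 0.125, 0.412 and 0.437 CPM in Col-0 (4.39 ± 0.77, adjusted p = 0.000152). DOX1 was at 23.3, 27.9 and 35.0 CPM in hy5-2 and 6.90, 9.57 and 11.5 CPM in Col-0 (1.64 ± 0.42, adjusted p = 0.00567). Every hy5-2 library lay above every Col-0 library for both. AT5G43570 was at 0.903, 1.89 and 1.19 against 0, 0.206 and 0.328 CPM (2.76 ± 0.65, adjusted p = 0.00172). GulLO5, at 0.903, 0.889 and 1.29 against 0.125, 0.206 and 0 CPM (adjusted p = 0.0424), lost its call whichever replicate was left out, with adjusted p up to 0.141 (change 2.55 without Col-0 replicate 3).

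Counts at this stage are small for these genes, and marker levels differed between the groups. The 7 epidermis and stomata markers summed to 8.58 to 10.1 CPM in hy5-2, 19.7 to 30.6 CPM in high-light Col-0 and 6.48 to 9.61 CPM in low-light Col-0 at SIM 8 days, 1 of them at 0 in high-light Col-0. PDF1 is on that list. The 7 photosynthetic tissue markers summed to 120 to 174 CPM in hy5-2, 1443 to 1534 CPM in high-light Col-0 and 165 to 226 CPM in low-light Col-0, none at 0. All 9 xylem markers were higher in high-light than in low-light Col-0, and 5 were lower in hy5-2 than in high-light Col-0, with sums of 258 to 348 CPM in hy5-2, 380 to 466 CPM in high-light Col-0 and 195 to 227 CPM in low-light Col-0. Of 6 root hair markers, 5 were higher in hy5-2 than in high-light Col-0 and none was called between lights, with sums of 59.8 to 90.6 CPM, 34.5 to 41.2 CPM and 48.2 to 67.0 CPM in the same order. Of 14 shoot meristem and boundary genes, 7 were higher in high-light than in low-light Col-0 and 8 lower in hy5-2 than in high-light Col-0, with sums of 976 to 1039.8 CPM, 1001 to 1216 CPM and 819 to 949 CPM. Of 6 endodermis markers, 1 was higher in high-light than in low-light Col-0 and 2 higher in hy5-2 than in high-light Col-0. Of 8 phloem markers, 4 were higher in high-light than in low-light Col-0 and 1 lower in hy5-2 than in high-light Col-0. No xylem, root hair or shoot meristem marker was at 0 in any of the 3 groups. Their part in the results was not tested.

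**Figure D5:**
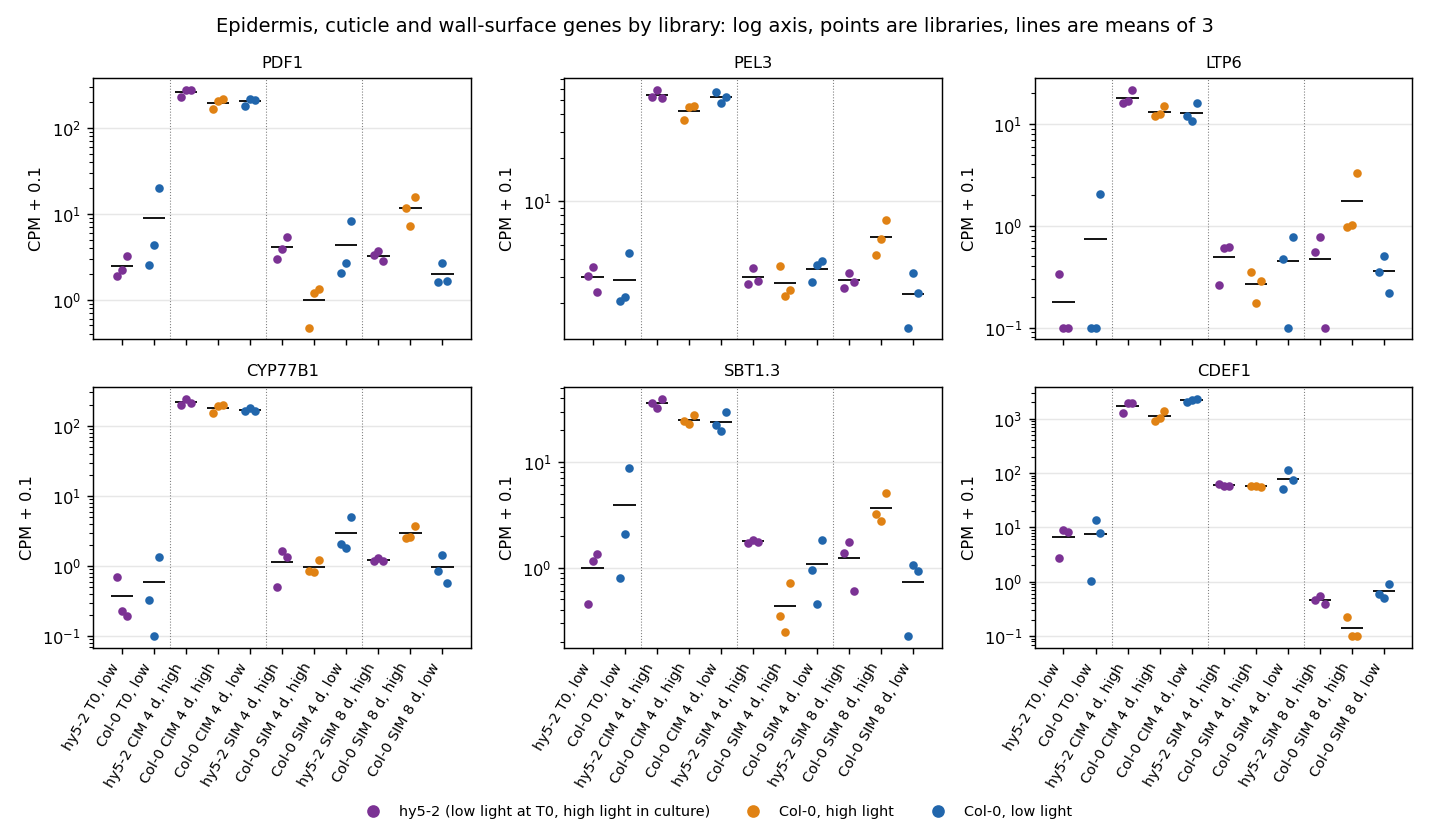
CPM + 0.1 on a log axis for 6 epidermal, cuticle and wall-surface genes in every library (points, coloured by genotype and light) with the mean of each group of 3 (line). After the CIM peak PDF1 stands at 7.20 to 15.9 CPM in high-light Col-0 at SIM 8 days, above hy5-2 and low-light Col-0, while CDEF1 is at or below 0.824 CPM in all 3 arms.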

How the data were processed

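Total RNA of hypocotyl explants was sequenced with a stranded mRNA kit, in 33 libraries of 11 groups with 3 replicates each, grouped by genotype, light and stage from the labels. The deposited table holds raw read counts per locus, per the file headers, in which the authors made 1 column per library. STAR, SAMtools, bedtools, edgeR and the TAIR10 build are named in the submitters' processing notes; versions, strand setting and the choice for multi-mapped reads: not given in the sources used here. Library totals were 7235763 to 21184356 counts, and low counts limit the precision of values outside CIM; fold bounds cover counting error only.

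CPM, log2(CPM + 1) and the score were computed on library totals. Differences were tested in R 4.3.3 with edgeR 4.0.16 (limma 3.58.1): TMM scaling, filterByExpr by group (20842 genes left), 1 coefficient per group over all 33 libraries, robust quasi-likelihood F test, and Benjamini-Hochberg adjustment. The SE is the log2 fold change divided by the square root of F. On simulated data with 200 changed genes, the light comparison at CIM recovered 76% and the genotype comparison 85% of 1.5-fold changes. Alternatives were RLE scaling, no filter, DESeq2 1.42.0, a fit of the compared groups alone, the replicate number as a block, each library left out, and, for the choice of genes, other scalings, pseudocounts and a median. The correlation of deviations between libraries with the same replicate number was over 0.1 in every pair for genotype at CIM (r = 0.376, 0.199 and 0.177) and for SIM 8 against 4 days in low-light Col-0 (r = 0.197, 0.264 and 0.162). The numbers were thus taken to pair libraries there. The main fit had no block, and the counts with the block are given beside its counts. In each other comparison at least 1 pair was below 0.1.

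Genes named are the 15 highest scores, the 10 highest mean CPM at CIM, those at the limit of the choice, the 4 largest rises and falls called per comparison, those on a gene list and families of 3 or more; others, among them the kinases, ASPGB1 and STY2, were named after their values were seen. Of 298 list symbols, 275 matched a single locus. The genes, lists, roles and interaction tests were chosen with earlier results of these data known. Upstream sequences are RefSeq's TAIR10.1; of 26710 coding sequences, 99.2% lay inside the intervals of the deposited table. Loci other than protein-coding ones were left out of the score. The upstream sequence of 1 gene is not reported here.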

Additional observations from a re-analysis of the deposited data

Results flagged for a closer look

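Differences between effects were tested as interaction terms in the same edgeR fit, with Benjamini-Hochberg adjustment over 20842 genes. The effect of light in Col-0 differed between SIM 8 days and CIM 4 days for 22 of the 150 genes, where 10.6% of all genes differed. The effect of genotype differed between these stages for 23 genes, where 12.9% of all genes differed. The change between SIM 8 and 4 days differed between high-light and low-light Col-0 for 8 genes, where 2.79% of all genes differed. Both effects at a stage use the same high-light Col-0 libraries. The interaction tests were not repeated with single libraries left out.

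PDF1, the epidermal marker, came up in all 3 tests. Its light effect was higher at SIM 8 days than at CIM by 2.59 ± 0.69 (adjusted p = 0.0153), and its genotype effect was lower by -2.22 ± 0.62 (adjusted p = 0.0186). Its change between SIM 8 and 4 days was larger in high than in low light by 4.66 ± 0.97 (adjusted p = 0.00845), with every high-light library at 8 days above every one at 4 days. CYP77B1 differed in the last test by 3.27 ± 0.72 (adjusted p = 0.011).

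For the light effect, AT1G67750 differed between SIM 8 days and CIM by 2.62 ± 0.81 (adjusted p = 0.0391), BBM by -3.63 ± 0.96 (adjusted p = 0.016), AT5G43570 by -2.71 ± 0.66 (adjusted p = 0.00663) and AT4G12545 by -3.50 ± 0.89 (adjusted p = 0.0127). In the same order, their lowest groups held 16, 6, 5 and 9 counts, so these fitted values rest on few counts. BBM had a fitted light effect of 0.01 at CIM and -3.62 at SIM 8 days.

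For the genotype effect, AT4G12545 differed by 3.93 ± 0.85 (adjusted p = 0.00346), AT5G43570 by 2.84 ± 0.66 (adjusted p = 0.00367), DOX1 by 1.86 ± 0.51 (adjusted p = 0.0182) and DIR1 by 1.69 ± 0.43 (adjusted p = 0.0102). GulLO5 differed by 3.33 ± 1.11 (adjusted p = 0.047), a fitted value that rests on 3 counts over its lowest group. The lowest groups of AT4G12545 and AT5G43570 held 9 and 5 counts. In the other direction, PEL3 differed by -1.38 ± 0.28 (adjusted p = 0.000828), ABCG15 by -1.61 ± 0.35 (adjusted p = 0.00224) and AT5G45720 by -1.29 ± 0.41 (adjusted p = 0.0342).

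Outside the protein-coding loci, the transposable element gene AT2G17490 (chr2:7598985-7602121, minus strand) had a score of 3.28. It was at 15.6 to 27.6 CPM at CIM and at no more than 1.34 CPM in any other library.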

How the results depend on the processing

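Of the 150 genes, 144 were kept on TMM-adjusted totals, 116 with a pseudocount of 0.1, 126 with a pseudocount of 5, 143 with medians, and 141 to 144 when a replicate number was left out. With the replicate block, 43 genes were called between lights at CIM and 31 between genotypes at SIM 8 days. The block gave 65 for genotype at CIM, 109 for SIM 4 days against T0, 95, 91 and 82 for SIM 8 against 4 days in hy5-2, high-light and low-light Col-0, and 49 for light at SIM 8 days. It lost no call of a named gene. Same-number libraries correlated in all 3 pairs with r above 0, but not above 0.1 in each, for light at CIM (0.160, 0.131 and 0.0948), for SIM 8 against 4 days in hy5-2 (lowest 0.0659) and high-light Col-0 (lowest 0.0275) and for light at SIM 8 days (lowest 0.0486), and signs were mixed for SIM 4 days against T0 and genotype at SIM 8 days. A fit of the compared groups alone called 72 genes between genotypes at CIM. Leaving out 1 library gave 21 to 29 genes for light at CIM, 31 to 53 for genotype at CIM, 98 to 106 for SIM 4 days against T0, 69 to 88, 75 to 83 and 61 to 80 for SIM 8 against 4 days in hy5-2, high-light Col-0 and low-light Col-0, 30 to 44 for light at SIM 8 days, and 11 to 22 for genotype at SIM 8 days. The causes were not tested. Of 95 alternative counts, 86 were within 1.5 times the reported one. Of 5437 alternatives for single genes none changed direction, and 541 lost the call, 35 of them in fits of the compared groups alone, 33 without a low-count filter, 23 in DESeq2 and 2 under RLE scaling. Of 502 calls of single genes, 161 were lost without at least 1 library. Depth limits the SIM and T0 values of genes with few counts, and 11 genes had fewer than 10 counts in every library outside CIM.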
